A study of Mus musculus with 35 samples.

Results

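Levels of 33 genes that build ribosomes or reside in the nucleolus were followed in single mouse small intestinal cells, out of 23538 genes counted. The genes were listed by name, from the known roles of their products, with earlier results of these data known. All 33 were found in the count tables and passed the filter on low counts in the comparisons of whole replicates. Transcripts were counted by CEL-seq, in which 1 sorted cell is lysed per well, its polyadenylated RNA receives a well barcode and a molecular barcode next to the poly-A tail, and distinct barcodes are counted per gene. 5 groups of C57BL/6 background were compared. Reg4-positive organoid cells (2 replicates) were sorted from cultures of a Reg4-dsRed knock-in mouse. Lgr5-positive organoid cells (1 replicate) were sorted from cultures of an Lgr5-GFP-DTR mouse. Whole organoid cells (2 replicates) were taken at random, with no reporter, from cultures of a wild-type mouse. YFP progeny (5 plates) were sorted straight from intestine 5 days after Lgr5-driven Cre had opened a YFP cassette at Rosa26, so that stem cells labelled at that time and their descendants carry YFP. Lgr5-EGFP cells (2 plates) were sorted straight from intestine by the reporter of the stem cell receptor Lgr5. Organoids were grown in gel with EGF, R-spondin and Noggin, each group from 1 mouse and its replicates from passages of 1 culture, so sort, mouse and culture cannot be told apart. The labels do not say whether ex vivo plates came from different animals.

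Ribosomes are made in the nucleolus. There RNA polymerase I transcribes ribosomal DNA into a long precursor, small nucleolar RNAs guide its chemical modification, and assembly factors fold and cut it while ribosomal proteins join. The work takes up much of the energy of a growing cell, and many of the genes involved are known targets of the transcription factor Myc. In the intestine, stem cells at the crypt base divide, their dividing daughters move up the crypt, and differentiated cells (absorptive enterocytes, and secretory Paneth, goblet and enteroendocrine cells) no longer divide.

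Promoters of 4 members are shown because each holds CACGTG, the E-box letters that Myc with its partner Max is known to bind, and because each of these members was lower in enterocyte-like wells both in organoids and ex vivo. The sequences are RefSeq's, on GRCm38.p6, from 250 bases before to 50 bases after the start of the transcript, and capitals mark the E-box. Npm1, Fbl, Bop1 and Rrs1 had no entry in the table. The promoter of Mybbp1a lies on the plus strand at chr11:72441077-72441376, that of Wdr43 on the plus strand at chr17:71615965-71616264, that of Tsr1 on the plus strand at chr11:74897830-74898129 and that of Utp20 on the minus strand at chr10:88826765-88827064.
Mybbp1a: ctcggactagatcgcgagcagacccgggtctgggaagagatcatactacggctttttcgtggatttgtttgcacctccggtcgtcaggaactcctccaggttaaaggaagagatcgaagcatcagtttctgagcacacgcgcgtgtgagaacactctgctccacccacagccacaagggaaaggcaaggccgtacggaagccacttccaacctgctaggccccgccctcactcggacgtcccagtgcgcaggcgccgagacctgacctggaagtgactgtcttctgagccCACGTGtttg
Wdr43: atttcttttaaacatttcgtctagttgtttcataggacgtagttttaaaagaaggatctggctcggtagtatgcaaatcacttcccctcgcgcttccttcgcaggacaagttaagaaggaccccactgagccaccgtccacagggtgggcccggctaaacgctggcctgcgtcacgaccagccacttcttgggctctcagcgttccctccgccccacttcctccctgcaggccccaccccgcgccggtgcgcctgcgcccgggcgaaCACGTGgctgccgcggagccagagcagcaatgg
Tsr1: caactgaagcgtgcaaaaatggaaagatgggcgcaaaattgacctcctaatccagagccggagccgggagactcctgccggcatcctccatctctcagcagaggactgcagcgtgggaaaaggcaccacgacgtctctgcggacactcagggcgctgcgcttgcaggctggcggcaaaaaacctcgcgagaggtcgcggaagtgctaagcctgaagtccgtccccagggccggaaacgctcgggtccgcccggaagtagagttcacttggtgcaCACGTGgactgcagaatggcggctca
Utp20: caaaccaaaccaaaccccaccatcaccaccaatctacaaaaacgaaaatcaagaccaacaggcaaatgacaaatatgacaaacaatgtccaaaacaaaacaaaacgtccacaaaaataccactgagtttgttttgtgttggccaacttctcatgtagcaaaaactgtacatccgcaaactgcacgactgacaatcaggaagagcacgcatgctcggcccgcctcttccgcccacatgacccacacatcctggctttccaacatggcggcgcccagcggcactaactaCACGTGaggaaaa
Counted from the first transcribed base as position 0, the E-box began at position 40 in Mybbp1a, 17 in Wdr43, 24 in Tsr1 and 37 in Utp20. The letters read the same on both strands. They were also found before the start in Imp4 and Nop2, and at position 2 in Pes1. In all, 7 of the 29 members with a promoter in the table (24.1%) held the E-box, against 8.09% of 27025 genes in the table. Imp4, Nop2 and Pes1 were called lower by edgeR in enterocyte-like wells of organoids but not ex vivo. Gar1 and Nop56, whose promoters hold no E-box, were called lower in both settings. A match is only a description of the sequence, and a link between the E-box and the fall was not tested.

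Counts in the kept wells, those with at least 1500 counts of genes, ran from 287001 to 2860636 per replicate. Of 1680 wells 1209 were kept, and no kept well held the same counts as another. The labels' reporters were reflected in the counts. Reg4 stood at 2599 and 7466 CPM in Reg4-positive replicates and at most at 1484.5 CPM elsewhere, and Lgr5 stood at 245 CPM in Lgr5-positive organoid cells and at 147 and 112 CPM on Lgr5-EGFP plates. Lgr5 was also at 193 CPM in Reg4-positive replicate 1. In Reg4-positive replicate 2, 3 wells above 100000 counts held 49.3% of all counts. Immune marker genes (12) summed to between 0 and 29.2 CPM in every replicate. Stromal marker genes (10) summed to 57.6 and 326 CPM in Reg4-positive replicates and to between 1.74 and 40.3 CPM elsewhere, and their part in the results was not tested. Here and for all replicate values CPM means counts relative to the replicate's total count on edgeR's CPM scale, after TMM scaling. CEL-seq counts 1 tag per transcript, so CPM are not divided by gene length. On the opposite strand another gene overlaps the last 500 bases of Nop56 (Idh3b), Dkc1 (Mpp1), Nhp2 (Rmnd5b), Bop1 (Mroh1), Mybbp1a (Spns2), Heatr1 (Lgals8), Bysl (Ccnd3), Tsr1 (Srr) and Noc2l (Samd11). Nothing in the labels states whether counting used strand, so reads of these pairs cannot be told apart.

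After TMM scaling, the summed level of the 33 genes was highest in Lgr5-positive organoid cells and, among ex vivo plates, on Lgr5-EGFP plate 1. It was 3382 and 4312 CPM in Reg4-positive, 5325 CPM in Lgr5-positive and 3604 and 3797 CPM in whole organoid replicates. Ex vivo it was 4486, 4521, 4707, 4625 and 5177 CPM on YFP progeny plates, against 5248 and 5171 CPM on Lgr5-EGFP plates. YFP plate 5 fell between both Lgr5-EGFP plates, so these groups overlapped in the TMM-scaled sum. The overlap and the order depended on the scaling, whose factors were 0.913 to 0.960 for YFP and 1.24 and 1.28 for Lgr5-EGFP plates. Without it the sum was 4182 to 4919 CPM on YFP plates, against 6509 and 6610 CPM on Lgr5-EGFP plates, with no overlap. Lgr5-positive organoid cells then held 6094 CPM. Npm1 and Ncl alone made 38.3% of the sum. Without them YFP plates held 2653 to 3049 CPM (median 2726), and Lgr5-EGFP plates held 3605 and 3658 CPM, with no overlap. In a sum over wells, fewer cells of a type and less RNA per cell cannot be told apart.

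**Figure D1:**
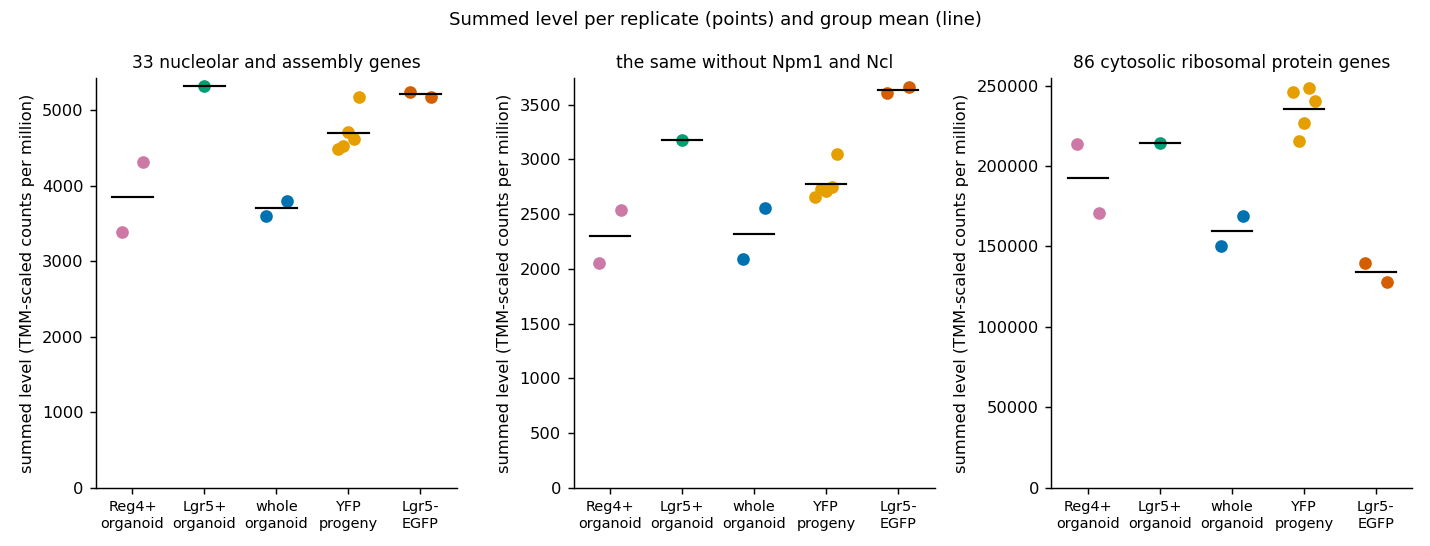
Summed level per replicate (points) and group mean (line), on a linear axis in TMM-scaled CPM, for the 33 genes, for the same without Npm1 and Ncl, and for 86 genes of cytosolic ribosomal proteins. Lgr5-EGFP plates are the highest in the middle panel (3605 and 3658) and, after TMM scaling, the lowest in the right panel. Without TMM scaling the ribosomal protein genes made 17.3% and 16.4% of the counts there, against 13.4% and 16.5% in whole organoid replicates, so that rank depends on the scaling.

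Among the abundant nucleolar proteins, Npm1 encodes nucleophosmin, a chaperone of the outer nucleolar layer. It stood at 815 and 1110 CPM in Reg4-positive, 1437 CPM in Lgr5-positive and 787 and 789 CPM in whole organoid replicates. Ex vivo it stood at 1105, 1134, 1340, 1031 and 1187 CPM in YFP progeny, against 948 and 716 CPM in Lgr5-EGFP cells. After TMM scaling, the YFP plates all lay above the Lgr5-EGFP plates. Ncl encodes nucleolin, which binds precursor rRNA. It stood at 513 and 663 CPM in Reg4-positive, 710 CPM in Lgr5-positive and 731 and 452 CPM in whole organoid replicates, and at 654 to 941 CPM in YFP progeny, against 696 and 797 CPM in Lgr5-EGFP cells. Groups overlapped for Ncl. The helicase gene Ddx21 ran from 85.2 to 153 CPM in organoid replicates and from 110 to 138 CPM in YFP progeny, against 202 and 230 CPM in Lgr5-EGFP cells. Gnl3, which encodes the stem cell associated nucleolar GTPase nucleostemin, showed the same order ex vivo, with 74.4 to 110 CPM in YFP progeny and 165 and 141 CPM in Lgr5-EGFP cells.

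Genes of the RNA polymerase I machinery were counted less often. Mybbp1a, a nucleolar Myb-binding protein gene, stood at 92.1 and 92.9 CPM in Reg4-positive, 131 CPM in Lgr5-positive and 68.4 and 121 CPM in whole organoid replicates, and at 103 to 131 CPM in YFP progeny, against 133 and 124 CPM in Lgr5-EGFP cells. Polr1a and Polr1b encode the largest and the second largest polymerase I subunits. Polr1a stood at 15.4 to 32.2 CPM in YFP progeny, against 49.5 and 53.7 CPM in Lgr5-EGFP cells, and Polr1b at 22.3 to 39.9 CPM, against 52.1 and 52.4 CPM. Neither overlapped between both ex vivo groups.

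Box C/D particles methylate rRNA and consist of the methyltransferase fibrillarin (Fbl) with Nop56 and Nop58. Fbl ran from 171 to 317 CPM in organoid replicates and from 307 to 370 CPM in YFP progeny, against 275 and 245 CPM in Lgr5-EGFP cells. Nop56 ran from 120 to 207 CPM in organoids and from 213 to 250 CPM in YFP progeny, against 244 and 230 CPM in Lgr5-EGFP cells. Nop58 had 79.1 to 111 CPM in YFP progeny and 203 and 217 CPM in Lgr5-EGFP cells. Box H/ACA particles turn uridines of rRNA into pseudouridine with the enzyme dyskerin (Dkc1) and its partners Gar1, Nhp2 and Nop10, and Nolc1 encodes a chaperone of both kinds of particle. Nop10 ran from 177 to 311 CPM in organoids, from 224 to 289 CPM in YFP progeny and from 188 to 194 CPM in Lgr5-EGFP cells. Nhp2 ran from 92.1 to 238 CPM in organoids and from 206 to 304 CPM in YFP progeny, with both Lgr5-EGFP plates at 233 CPM. Gar1 ran from 71.4 to 134 CPM in organoids and from 103 to 116 CPM in YFP progeny, against 167 and 179 CPM in Lgr5-EGFP cells.

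Small subunit factors act on the first part of the precursor, among them Wdr43, Utp20 and Heatr1 of the small subunit processome, Imp4, Rrp9, the late factor Bysl and the cytoplasmic maturation factor Tsr1. Wdr43 ran from 40.7 to 97.5 CPM in YFP progeny, against 114 and 122 CPM in Lgr5-EGFP cells, and Tsr1 from 48.1 to 54.5 CPM, against 60.8 and 61.5 CPM. Imp4 had 65.3 to 94.1 CPM in YFP progeny, against 65.2 and 67.9 CPM in Lgr5-EGFP cells, an overlap with YFP plate 4. Large subunit factors include Pes1, Bop1 and Wdr12, which form the PeBoW complex, and Nop2, Nop16, Rrs1, Ppan, Ebna1bp2, Ddx18, Rrp1b and Noc2l. Ebna1bp2 ran from 89.8 to 105 CPM in YFP progeny, against 114 and 133 CPM in Lgr5-EGFP cells. Pes1 ran from 73.0 to 82.4 CPM, against 96.4 and 81.5 CPM, an overlap with 1 plate. Ddx18, a helicase gene, ran from 47.7 to 63.9 CPM, against 122 and 126 CPM. Over the 12 replicates the rarest member was Bysl, with a mean of 23.4 CPM and a count in 18.5% of kept wells.

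At 5 days after labelling, Lgr5 progeny held less of most assembly factors than sorted Lgr5-EGFP cells. edgeR's quasi-likelihood test called 20 of the 33 genes at a false discovery rate of 0.05, of which 19 were lower and 1 was higher in YFP progeny. Among all 9065 genes tested 11% were called lower and 14.7% higher. The median log2 fold change was -0.57 over the 33 genes, with 27 of 33 below 0, and -0.00 over all genes. By role, 6 of 11 large subunit factors fell, 5 of 7 small subunit factors, 2 of 3 RNA polymerase I genes, 3 of 5 box H/ACA genes, 1 of 3 box C/D genes and 2 of 4 abundant nucleolar proteins.

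Rrp1b, a nucleolar protein gene of the large subunit pathway, had 14.035, 25.5, 10.3, 7.26 and 18.5 CPM in YFP progeny, against 71.2 and 51.1 CPM in Lgr5-EGFP cells, with no overlap. Its log2 fold change was -1.88 ± 0.28 (SE), with an edgeR adjusted p of 0.000328. Bysl had 11.2, 24.1, 25.8, 7.26 and 16.8 CPM, against 50.4 and 38.8 CPM (log2 -1.28 ± 0.29, edgeR adjusted p = 0.00592). All YFP plates lay below both Lgr5-EGFP plates for these genes. Nop58 had 96.8, 79.1, 101, 98.0 and 111 CPM in YFP progeny, against 203 and 217 CPM (log2 -1.12 ± 0.15, edgeR adjusted p = 0.000139). Ddx18 had 47.7, 54.9, 61.8, 61.7 and 63.9 CPM, against 122 and 126 CPM (log2 -1.11 ± 0.15, edgeR adjusted p = 0.000134). The separation was wide for both, since the highest YFP plate was well under the lower Lgr5-EGFP plate. Heatr1 had 30.9, 37.5, 37.8, 39.9 and 45.4 CPM, against 71.2 and 85.4 CPM (log2 -1.05 ± 0.18, edgeR adjusted p = 0.000706). Rrp9, a small subunit factor bound to the U3 RNA, had 32.3, 33.5, 36.1, 25.4 and 13.4 CPM, against 47.8 and 64.7 CPM (log2 -0.98 ± 0.25, edgeR adjusted p = 0.0115).

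The other 13 genes that fell were Polr1a, Polr1b, Ppan, Ddx21, Utp20, Wdr43, Nolc1, Gnl3, Rrs1, Gar1, Wdr12, Nop16 and Dkc1, with log2 fold changes between -0.96 and -0.40. Utp20 was the only one of these whose plates overlapped. Npm1 rose, by 0.48 ± 0.15 on the log2 scale (edgeR adjusted p = 0.033), on the TMM-scaled plate values given above. Its call was lost under 6 of the alternatives, among them leaving out Lgr5-EGFP plate 2, YFP plate 2 or YFP plate 3. The 13 genes that missed the threshold included Ncl, Fbl, Nop56, Nhp2 and Nop10. The number of genes called depended on both Lgr5-EGFP plates. It was 11 without plate 1 and 8 without plate 2, and DESeq2 called 11.

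A list of 117 other ribosome biogenesis genes gave a like picture, with 45 of 115 tested lower, 3 higher and a median log2 of -0.52. Those with the largest change were Cebpz (-1.61 ± 0.15), Twistnb, a polymerase I subunit gene (-1.60 ± 0.24), Rrp8 (-1.57 ± 0.38) and Nol8 (-1.56 ± 0.29), all on the log2 scale. Genes of the ribosomal proteins themselves stood higher in YFP progeny. After TMM scaling, the sum over 86 genes was 246030, 215800, 226970, 248380 and 240660 CPM in YFP progeny. It was 139500 and 128060 CPM in Lgr5-EGFP cells, with no overlap. Without TMM scaling these genes made 19.96% to 23.8% of the counts in YFP progeny, against 17.3% and 16.4% in Lgr5-EGFP cells. The groups then lay closer together, still with no overlap, so the size of this difference depended on the scaling. The plates also differed in spike-in RNA, at 6.22% to 7.76% of the counts in YFP progeny and 0.884% and 0.922% in Lgr5-EGFP cells, and in genes found per well, at medians of 2311 to 2850 in YFP progeny and 3978 and 4918 in Lgr5-EGFP cells. YFP plates held 5.71% to 17.5% enterocyte-like wells and Lgr5-EGFP plates held none of 75 and 84 wells. The part of these differences in the result was not tested, other than by keeping to stem-like wells.

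Within stem-like wells alone, defined below, 10 genes were lower and 3 higher in YFP progeny among 32 tested, with backgrounds of 10.9% lower and 13% higher over 4899 genes. The median log2 was -0.56. All 10 lower genes were also among the 19 of the full comparison, and they were Ddx18, Ddx21, Gar1, Gnl3, Heatr1, Nolc1, Nop16, Nop58, Ppan and Rrp1b. In these wells Ddx18 changed by -1.22 ± 0.23 and Nop58 by -1.08 ± 0.19 on the log2 scale (edgeR adjusted p = 0.000302 and 0.000187). The 3 higher genes were Fbl (0.54 ± 0.16), Npm1 (0.50 ± 0.16) and Nop10 (0.45 ± 0.16), with edgeR adjusted p of 0.0163, 0.0206 and 0.0488. Without TMM scaling the plates overlapped for all 3 in these wells. Npm1 then stood at 1079 to 1517 CPM in YFP progeny, against 1245 and 980 CPM in Lgr5-EGFP cells.

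**Figure D2:**
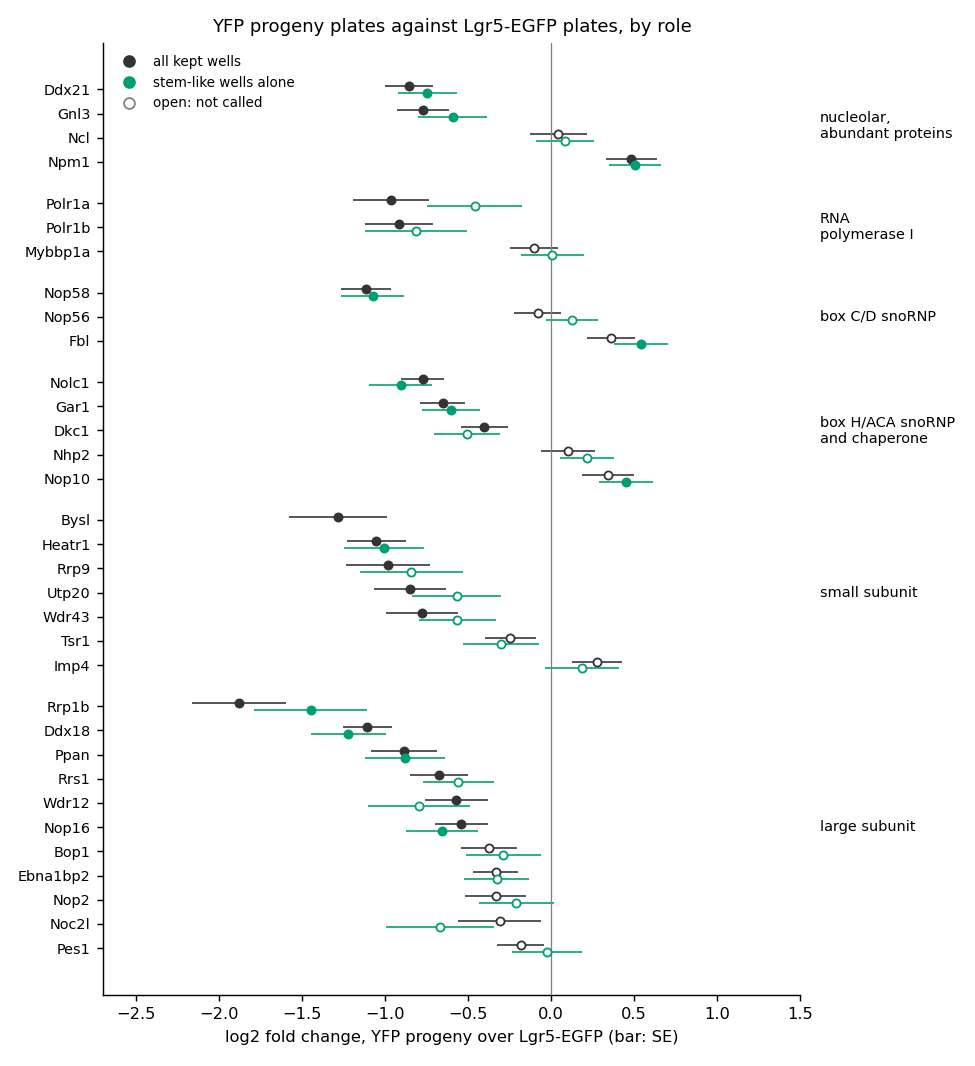
Log2 fold change of YFP progeny over Lgr5-EGFP cells for each gene, grouped by role, with SE as bars. Dark points use all kept wells, green points stem-like wells alone, and open points were not called; most points lie left of 0, Rrp1b farthest at -1.88, and Npm1 lies right of 0 in both.

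In organoids edgeR called none of the 33 genes between the sorted groups at the false discovery rate used. Lgr5-positive cells were above the whole organoid mean for 27 of 33 genes, with a median log2 of 0.52 against -0.03 over all genes, but none was called (background 3.63% of 10522 genes). The count at an unadjusted p under 0.05 was 3, DESeq2 called 0, and 1 fit over all 5 groups called 5 higher. In stem-like wells alone the median was -0.06 and 0 were called (background 1.49% of 8869 genes). Whole organoid replicates held 56.9% and 14.8% enterocyte-like wells, and the Lgr5-positive replicate held none of 74 wells. With 1 Lgr5-positive replicate, whose spread was assumed to be that of the other organoid groups, simulated log2 changes of 1 were recovered in 3% of 100 changed genes and changes of 2 in 35%.

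Reg4-positive cells, of which 88% and 88.9% were secretory-like, were set against whole organoids with a median log2 of 0.01 and 0 genes called (background 6.46%), none of them at an unadjusted p under 0.05 and none by DESeq2. The summed level of the 3 wells above 100000 counts was 5874 to 6500 unscaled CPM, that is per all counts of the wells summed without TMM scaling, and the other 78 wells of that replicate held 2466. Without those wells the median log2 was -0.24. Of the pathway list 1 gene, Nip7, was lower (-1.49 ± 0.34, edgeR adjusted p = 0.0398). Against the Lgr5-positive replicate the median was -0.45 with 29 of 33 below 0. Neither a member nor any other of 10522 genes was called there (0%), 2 members and 1104 genes had an unadjusted p under 0.05, and DESeq2 called 0 members.

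Culture was set against intestine for whole organoid cells with YFP progeny and for Lgr5-positive organoid cells with Lgr5-EGFP cells. The first pair differed in its mix of wells. Enterocyte-like wells made up 56.9% and 14.8% of whole organoid replicates, against 5.71% to 17.5% of YFP plates. Stem-like wells made up 14.9% and 23.4%, against 23.8% to 60%. The part of this mix in the result was not tested, other than by keeping to stem-like wells. Whole organoid cells had lower levels of 2 members than YFP progeny (background 9.45% lower and 13.4% higher of 10632 genes), with a median log2 of -0.32. Fbl stood at 171 and 211 CPM in whole organoid replicates, against 307, 334, 342, 312 and 370 CPM in YFP progeny (log2 -0.81 ± 0.17, edgeR adjusted p = 0.00427). Tsr1 stood at 31.4 and 34.3 CPM, against 53.3, 49.6, 48.1, 54.5 and 53.8 CPM (log2 -0.65 ± 0.18, edgeR adjusted p = 0.0181). Neither gene overlapped between groups. Without whole organoid replicate 1 no member was called. In stem-like wells alone the median was 0.13. The 2 genes called there, Nolc1 (0.78 ± 0.21) and Nop58 (0.68 ± 0.22), were higher in whole organoids (edgeR adjusted p = 0.0208 and 0.0479). The background there was 5.51% higher and 5% lower. In both settings the share of members called was near or below the background, so these counts are no result about the members as a set. Of 116 other pathway genes 6 were lower and 1, Ddx55 (0.87 ± 0.24), was higher in whole organoid cells over all kept wells.

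Between Lgr5-positive organoid cells and Lgr5-EGFP cells edgeR called 0 members (background 1.44% of 10632 genes), with 7 members at an unadjusted p under 0.05, 1 called by DESeq2 and a median log2 of -0.27. In stem-like wells alone Npm1 was higher (0.81 ± 0.21, edgeR adjusted p = 0.0333) and Utp20 lower (-1.53 ± 0.41, edgeR adjusted p = 0.0392) in organoid cells, with a background of 2.06% higher and 1.37% lower of 8483 genes. There Npm1 had 1718 unscaled CPM in the organoid replicate, against 1245 and 980 on Lgr5-EGFP plates. Utp20 had 25.9, against 79.9 and 91.0.

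The gradient along differentiation was read from classes of wells, made separately in organoids and ex vivo by clustering without the 33 genes and without the pathway list. Of 715 organoid wells 190 were enterocyte-like and 171 secretory-like, and of 494 ex vivo wells 43 were enterocyte-like and 112 secretory-like. The genes Fabp1, Apoa1, Apoa4 and Sis led the ex vivo enterocyte-like cluster, whose first gene was the hormone gene Gip. One organoid cluster of 52 wells and no ex vivo cluster could be named stem-like. In both settings stem-like wells were therefore taken as those outside the enterocyte-like and secretory-like clusters with at least 2 counts of 12 stem markers in a well thinned to 1500 counts. That gave 159 organoid and 237 ex vivo wells. Stem-like is therefore a range and not a cell type. At the threshold of 2 counts lay 49 organoid and 63 ex vivo wells, and 67 and 55 wells lay 1 count below it.

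Taken as whole classes, enterocyte-like wells had the lowest summed level of the 33 genes, secretory-like wells an intermediate one and stem-like wells the highest. It was 1254 and 1223 unscaled CPM in enterocyte-like wells of whole organoid replicates, 2737 and 2148 in secretory-like and 6153 and 5916 in stem-like wells. Ex vivo the sum was 1596, 2248, 1842 and 1341 in enterocyte-like wells of YFP plates 1, 2, 3 and 5. It was 4475, 3839, 3593 and 3962 in their secretory-like and 5207, 5182, 5282 and 5947 in their stem-like wells. Classes did not overlap in either setting. Lgr5-EGFP plates had 4669 and 4188 in secretory-like and 6751 and 7102 in stem-like wells, and had no enterocyte-like wells. All class values are in unscaled CPM.

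In wells thinned to 1500 counts the median number of counts of the 33 genes was 2 in enterocyte-like, 3 in secretory-like and 9 in stem-like organoid wells, and 2, 5 and 9 ex vivo. Wells with no such count made up 17.4%, 4.68% and 0% of these organoid classes and 16.3%, 0% and 0% of the ex vivo ones. Not every single gene showed the same order. Nop56 was counted in 3.16% of thinned enterocyte-like, 6.43% of secretory-like and 35.2% of stem-like organoid wells, and Npm1 in 33.7%, 60.8% and 83.6%. Dkc1, by contrast, was counted in 12.1%, 6.43% and 20.1% of these organoid wells, and Ncl in 40%, 39.8% and 62.9%. For Nop58 ex vivo the shares were 9.30%, 7.14% and 27.0%. Median depths before thinning were 6734.5, 5598 and 11122 counts in these organoid classes and 6457, 9750.5 and 8384 ex vivo.

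**Figure D3:**
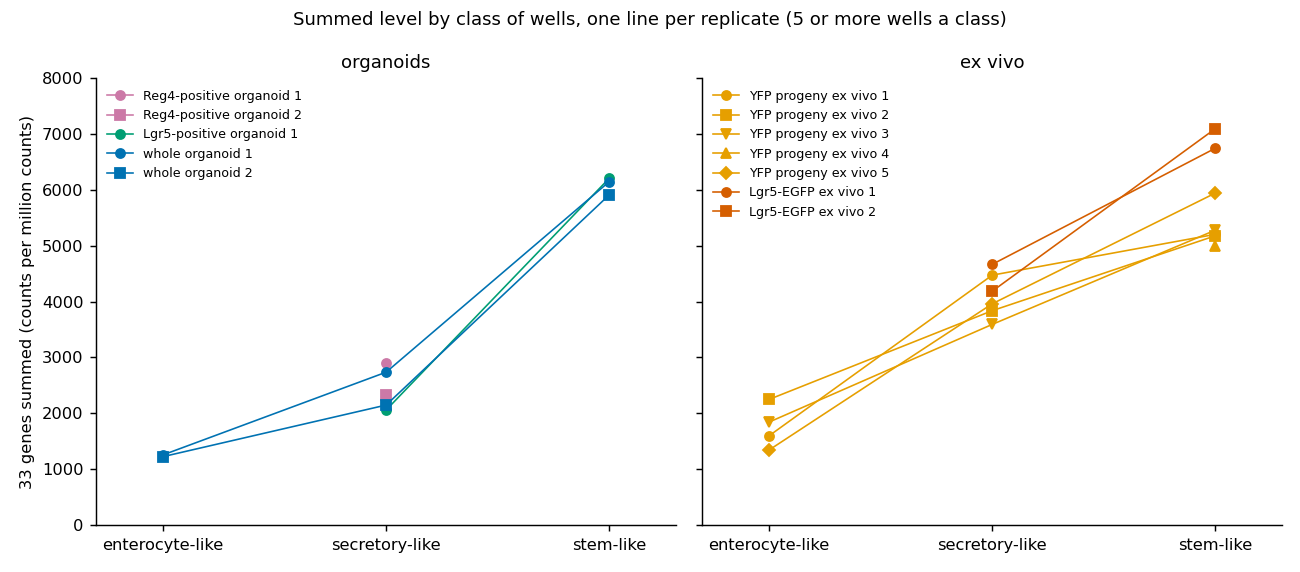
Summed level of the 33 genes, in unscaled CPM on a linear axis, in enterocyte-like, secretory-like and stem-like wells, with 1 line per replicate that had at least 5 wells of a class. Every line rises from left to right, with 1223 to 2248 in enterocyte-like wells and 5001 to 7102 in stem-like wells.

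Enterocyte-like wells in organoids held less of 29 of the 33 genes than stem-like wells of the same replicate, and none was higher (background 15.9% lower, 14% higher of 7712 genes). The median log2 was -2.57, against -0.07 over all genes. Bop1, Dkc1, Nop10 and Noc2l were not called. These comparisons rest on 157 and 31 enterocyte-like wells of both whole organoid replicates, against 41 and 49 stem-like wells. The number of genes called was 13 without replicate 1 and 18 without replicate 2, fits in which 1 pair remained.

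Utp20, a large scaffold of the processome, had 3.07 and 0 unscaled CPM in enterocyte-like wells of whole organoid replicates, 4 counts in all, against 55.6 and 50.5 in stem-like wells (log2 -4.15 ± 0.73, edgeR adjusted p = 0.000327). Ppan, a large subunit factor, had 4.60 and 0, against 71.0 and 82.8 (log2 -3.97 ± 0.58, edgeR adjusted p = 6.79e-05). Gnl3 had 6.13 and 12.7, against 113 and 155 (log2 -3.59 ± 0.49, edgeR adjusted p = 3.81e-05). All 3 were near 0 in enterocyte-like wells. Mybbp1a had 6.90 and 15.8, against 130 and 194 (log2 -3.51 ± 0.52, edgeR adjusted p = 7.32e-05). Nop56 had 26.1 and 22.2, against 330 and 347 (log2 -3.46 ± 0.38, edgeR adjusted p = 7.38e-06). Heatr1 had 5.37 and 3.17, against 63.3 and 60.6 (log2 -3.38 ± 0.58, edgeR adjusted p = 0.00026). The abundant genes changed less. Npm1 had 236 and 288, against 1390 and 1372 (log2 -2.20 ± 0.31, edgeR adjusted p = 4.62e-05), and Ncl had 353 and 193, against 1137 and 729 (log2 -1.44 ± 0.31, edgeR adjusted p = 0.00161).

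Ex vivo, 25 of the 33 genes were lower in enterocyte-like wells of 4 YFP plates and none was higher (background 19.7% lower, 17.7% higher of 6017 genes). The median log2 was -1.57, against -0.18 over all genes, and all 33 were below 0. All members of the RNA polymerase I, box C/D, box H/ACA and abundant nucleolar groups fell, as did 7 of 11 large and 3 of 7 small subunit factors. Npm1 had 287, 489, 464 and 406 unscaled CPM in enterocyte-like wells of YFP plates 1, 2, 3 and 5, against 1290, 1273, 1517 and 1315 in stem-like wells (log2 -1.82 ± 0.18, edgeR adjusted p = 6.29e-10). Ncl had 298, 229, 319 and 203, against 858, 788, 652 and 1151 (log2 -1.73 ± 0.20, edgeR adjusted p = 1.9e-08). Neither overlapped. Gar1 had 10.6, 22.9, 29.0 and 0, against 102, 131, 128 and 129 (log2 -2.84 ± 0.44, edgeR adjusted p = 3.4e-06). Nop56 had 42.5, 99.4, 58.0 and 0, against 252, 268, 262 and 314 (log2 -2.09 ± 0.30, edgeR adjusted p = 7.64e-07). Ppan had 21.3, 15.3, 14.5 and 0, against 90.0, 60.6, 49.4 and 55.8 (log2 -2.22 ± 0.51, edgeR adjusted p = 0.00079). Plate 5, with 5 enterocyte-like wells, had no count of these 3 genes.

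The rarest genes are given by their counts, over 318385 counts in enterocyte-like and 853756 in stem-like wells of these plates. Rrp1b had 0 counts against 24, which makes it at least 2.98-fold lower with a floor of 3 counts over the group. Placed at this bound it leaves the median of the 33 genes at -1.57. Polr1a had 1 count against 36, a ratio of stem-like to enterocyte-like levels of 13.4 (95% exact interval 2.26 to 545). Utp20 had 2 counts against 35, a ratio of 6.53 (1.68 to 56.0), and Polr1b had 2 against 26, a ratio of 4.85 (1.21 to 42.1). These intervals cover counting error only. All 4 genes were called lower by edgeR.

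The 2 settings shared 22 of the lower genes, which is 22 of 29 in organoids and 22 of 25 ex vivo, and Noc2l was called in neither. A test of the difference between settings called none of the 26 members that passed its filter (background 1.96% of 5349 genes), with 11 at an unadjusted p under 0.05 and a median log2 of -1.13. Of the pathway list 49 of 109 genes were lower in organoids and 31 of 94 ex vivo, and none was higher. Nle1 (-4.62 ± 1.08), Mdn1 (-4.06 ± 1.23) and Exosc8 (-3.92 ± 0.57) changed most in organoids, and Rrp15 (-3.30 ± 0.97), Bms1 (-3.12 ± 0.72) and Las1l (-3.00 ± 0.76) ex vivo, on the log2 scale. Ribosomal protein genes made 7.85% and 9.18% of the counts in enterocyte-like wells of whole organoids, against 19.1% and 21.0% in stem-like wells. In YFP progeny they made 11.98% to 15.9%, against 23.9% to 26.7%.

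Secretory-like wells lay between. In organoids 8 of the 33 genes were lower than in stem-like wells and none higher (background 7.02% lower, 4.54% higher of 7712 genes), with a median log2 of -1.21 and all 33 below 0. The classes were compared in the Lgr5-positive replicate and both whole organoid replicates, with 5, 18 and 10 secretory-like wells. Npm1 had 354, 549 and 408 unscaled CPM in secretory-like wells, against 1718, 1390 and 1372 in stem-like wells (log2 -1.70 ± 0.27, edgeR adjusted p = 0.000274). Nop56 had 66.4, 91.5 and 60.0, against 239, 330 and 347 (log2 -2.07 ± 0.37, edgeR adjusted p = 0.000992). Nhp2 had 0, 106 and 48.0, against 268, 300 and 349 (log2 -2.32 ± 0.44, edgeR adjusted p = 0.00157). None overlapped. Wdr43 had 22.1, 21.1 and 24.0, against 101, 130 and 111 (log2 -2.40 ± 0.54, edgeR adjusted p = 0.00591). Rrs1, an assembly factor of the 5S particle, had 3 counts in secretory-like and 178 in stem-like wells, a ratio of stem-like to secretory-like levels of 8.38 (95% exact interval 2.82 to 41.0). Gnl3 (-1.51 ± 0.46), Ncl (-1.29 ± 0.28) and Nop10 (-1.18 ± 0.34) were also lower. The number called was 4 without whole organoid replicate 1 and 4 without replicate 2.

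Ex vivo, over 4 YFP and both Lgr5-EGFP plates, 5 genes were lower and none higher (background 4.3% lower, 7.86% higher of 6017 genes), with a median log2 of -0.36 and all 33 below 0. They were Dkc1 (-0.65 ± 0.19), Nop58 (-0.57 ± 0.19), Mybbp1a (-0.57 ± 0.18), Nop56 (-0.49 ± 0.15) and Nhp2 (-0.44 ± 0.15), with edgeR adjusted p between 0.0199 and 0.042. None of the 5 was called without YFP plate 1, without Lgr5-EGFP plate 1 or without Lgr5-EGFP plate 2, and 2 were called without YFP plate 3 or 5. DESeq2 called none. The median over all genes was -0.09. Scaled to spike-in RNA within each plate, the median log2 was 0.08 for the 33 genes and 0.34 over all genes, and none was called, so the median of the 33 genes lay below that of all genes under both scalings. The ex vivo enteroendocrine-like cluster (44 wells) also carried stem markers, at means of 3.95, 4.57 and 4.69 counts per thinned well on YFP plates 1, 2 and 3, against 3.74, 3.50 and 2.96 in stem-like wells. The summed level of the 33 genes there was 4794, 5640 and 5316 unscaled CPM on YFP plates 1, 2 and 3, against 5207, 5182 and 5282 in stem-like wells. These wells thus lay below the stem-like wells on plate 1 and above them on plates 2 and 3. Paneth-like wells of plates 2 and 3 held 3016 and 2712, and plate 1 had 1 such well.

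A test of the difference between settings called 3 members, all lower in organoids relative to ex vivo (background 1.15% lower and 0.431% higher of 6263 genes). They were Npm1 (-1.33 ± 0.22, edgeR adjusted p = 0.00339), Nop56 (-1.47 ± 0.33, edgeR adjusted p = 0.021) and Nhp2 (-1.72 ± 0.41, edgeR adjusted p = 0.0304). Npm1 in secretory-like wells stood at 354 to 549 in organoids of the 3 replicates compared, and at 593 to 1237 unscaled CPM on the ex vivo plates compared. Reg4-positive replicates, with 66 and 72 secretory-like wells, were left out of the comparison since each had 3 stem-like wells. Npm1 stood at 714 and 585 there, and the higher of these lay within the ex vivo range. The makeup of the class differed between replicates. Paneth-like wells made up 4 of 5 in the Lgr5-positive replicate, enteroendocrine-like wells 15 of 18 in whole organoid replicate 1 and goblet-like wells 7 of 10 in replicate 2. Of the 112 ex vivo secretory-like wells, 3 of which were on a plate not compared, 44 were enteroendocrine-like and 39 goblet-like. That enteroendocrine-like cluster, which carried stem markers, had 3 enteroendocrine markers raised, and 12 wells kept the name at Leiden resolution 2. Its Npm1 was 1488, 1874 and 1573 unscaled CPM on YFP plates 1, 2 and 3, against 1290, 1273 and 1517 in stem-like wells. On YFP plate 5 and Lgr5-EGFP plate 2, with 2 and 3 such wells, it was 1085 and 570, against 1315 and 980. The part of this makeup in the difference was not tested.

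**Figure D4:**
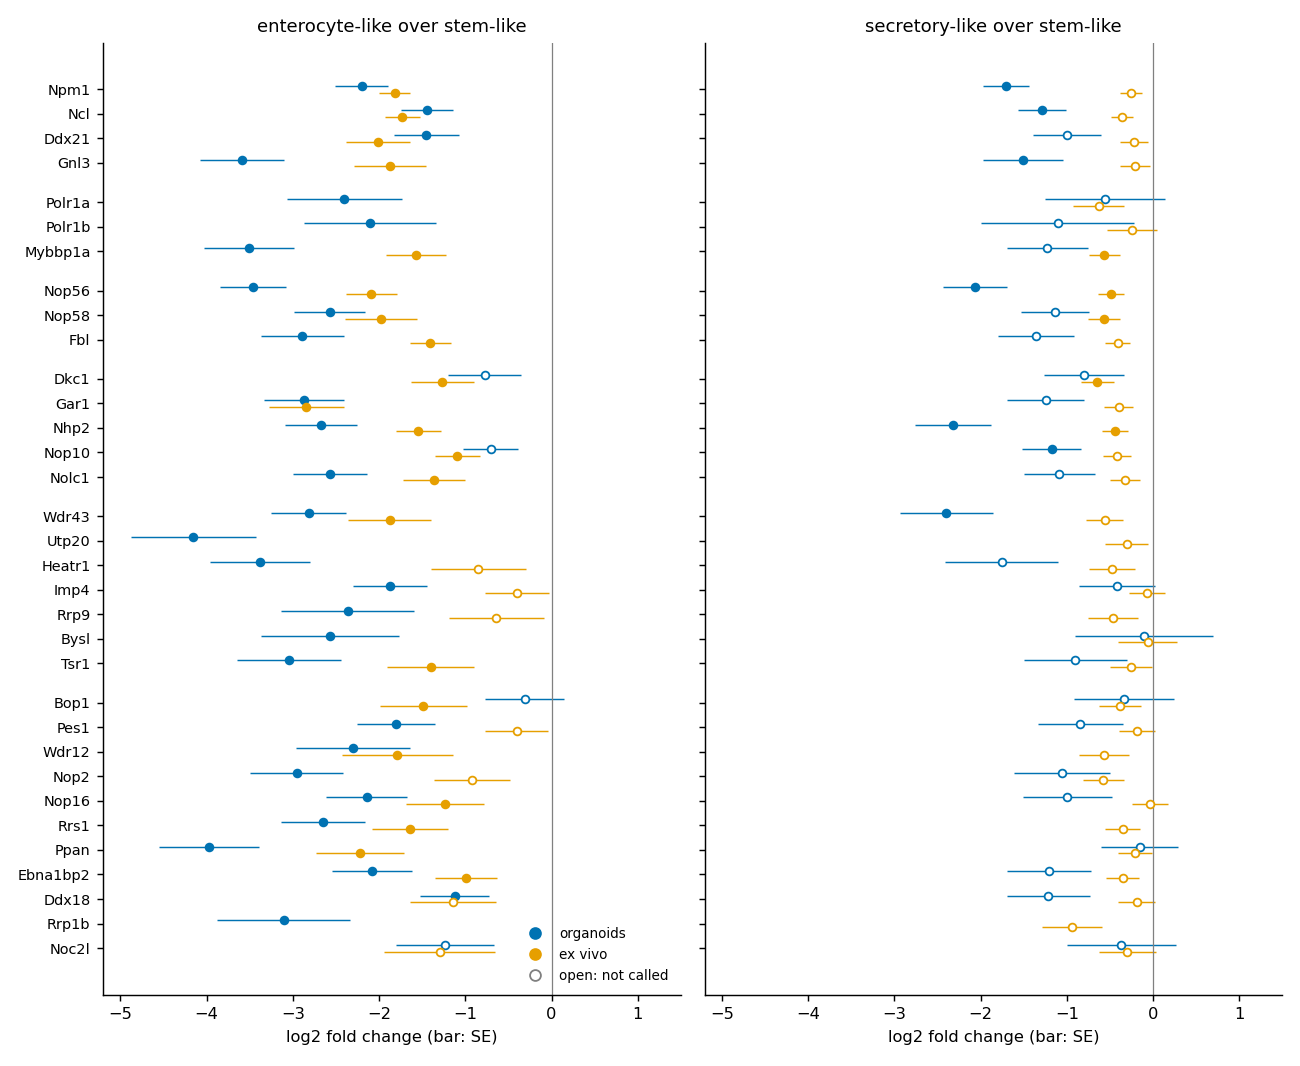
Log2 fold change of enterocyte-like over stem-like wells (left) and secretory-like over stem-like wells (right) for each gene in organoids (blue) and ex vivo (orange), with SE as bars and open points for genes not called; genes with fewer than 4 counts in the differentiated class are left out. All points lie left of 0, from -4.15 (Utp20) in the left panel to values near 0 in the right panel.

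Dividing wells, those with at least 3 counts of 25 cell cycle genes after thinning, held more of the 33 genes than other wells in organoids. Of the genes 21 were higher and none lower (background 9.62% higher, 15.1% lower of 9169 genes), with a median log2 of 0.90, against -0.11 over all genes, and all 33 above 0. The summed level was 3950 and 5995 unscaled CPM in dividing wells of Reg4-positive replicates, against 2721 and 2179 in other wells. It was 6375, against 5372, in the Lgr5-positive replicate and 6119 and 5838, against 2047 and 2207, in whole organoid replicates. In each replicate the dividing wells were higher. Other wells of whole organoid replicates held means of 103 and 52.5 enterocyte marker counts per thinned well, against 21.9 and 9.37 in dividing wells. The part of this in the difference was not tested, other than by keeping to stem-like wells. In Reg4-positive replicate 2 the dividing wells included the 3 wells above 100000 counts, and the other 9 held 4389.

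Nop56 had 162, 234, 256, 321 and 344 unscaled CPM in dividing wells of the Reg4-positive, Lgr5-positive and whole organoid replicates, against 90.7, 65.3, 186, 70.3 and 73.2 in other wells (log2 1.34 ± 0.25, edgeR adjusted p = 0.00232). Nhp2 had 142, 254, 302, 304 and 379, against 65.5, 67.4, 166, 78.6 and 129 (log2 1.27 ± 0.19, edgeR adjusted p = 0.000551). Both were higher in dividing wells of every replicate. Mybbp1a had 162, 121, 158, 145 and 210, against 60.5, 56.9, 130, 27.4 and 53.5 (log2 1.23 ± 0.27, edgeR adjusted p = 0.00528). Gar1 had 102, 176, 175, 148 and 127, against 52.9, 33.7, 98.7, 38.6 and 62.3 (log2 1.21 ± 0.23, edgeR adjusted p = 0.00263). Rrp9 (1.31 ± 0.38) and Rrp1b (1.32 ± 0.39) rose on fewer counts, with edgeR adjusted p of 0.0241 and 0.0256. Rrp1b was lower in dividing wells of Reg4-positive replicate 1, at 10.2 against 22.7. The number called was 7 without whole organoid replicate 1 and 9 without replicate 2. Of the pathway list 38 of 114 genes rose, led by Tcof1, the gene of the polymerase I cofactor treacle (1.73 ± 0.24), and none fell.

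Ex vivo only 3 genes were higher in dividing wells and none lower (background 5.06% higher, 6.51% lower of 7355 genes), with a median log2 of 0.17. They were Polr1b (0.95 ± 0.25, edgeR adjusted p = 0.0181), Dkc1 (0.57 ± 0.18, edgeR adjusted p = 0.0492) and Nhp2 (0.46 ± 0.13, edgeR adjusted p = 0.0328). None was called without YFP plate 1, and 1 was called without plate 2, 3 or 5. The summed level was 4592, 4603, 5160, 4809 and 5177 in dividing wells of YFP plates, against 3822, 2953, 3385, 3788 and 3884 in other wells, and 6675 and 6718, against 6079 and 6270, on Lgr5-EGFP plates. It was higher in dividing wells of all 7 plates. A test of the difference between organoids and ex vivo called no member (background 0.0456% of 8776 genes), with 19 at an unadjusted p under 0.05.

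Among stem-like wells alone no member was called in either setting, with backgrounds of 2.65% of 6372 genes in organoids and 3.26% of 5213 ex vivo, and DESeq2 was not run on these wells. The median log2 was 0.41 in organoids and -0.06 ex vivo. The summed level was 6260, against 6090, in the Lgr5-positive replicate, and 7218 and 6165, against 4084 and 5083, in whole organoid replicates. On YFP plates 3, 4 and 5 it was 5217, 4877 and 5891, against 5618, 5643 and 6246, and on Lgr5-EGFP plates 6525 and 7033, against 7175 and 7331. The dividing stem-like wells were thus the lower ones on these 5 ex vivo plates and the higher ones in the 3 organoid replicates. YFP plates 1 and 2, with 1 and 4 other stem-like wells, were too small to be compared. They went the other way, at 5236 and 5187, against 4881 and 5142.5. Dividing stem-like wells of whole organoid replicate 1 held a mean of 11.0 enterocyte marker counts per thinned well, against 33.25 in the other stem-like wells, and the part of this in the difference was not tested.

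**Figure D5:**
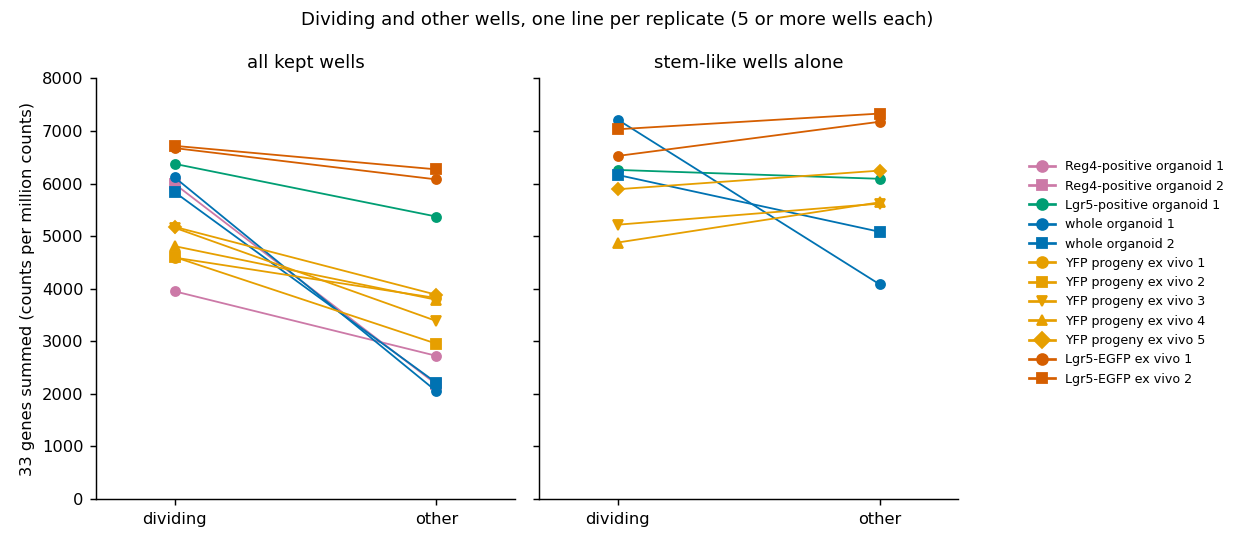
Summed level of the 33 genes, in unscaled CPM on a linear axis, in dividing and other wells, with 1 line per replicate that had at least 5 wells of each. Over all kept wells (left) every line falls from dividing to other wells, most steeply in whole organoid replicates (6119 and 5838, against 2047 and 2207); in stem-like wells alone (right) lines of the 5 ex vivo plates rise.

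Myc was counted beside the 33 genes. It stood at 134 and 100 CPM in Reg4-positive, 198 CPM in Lgr5-positive and 27.9 and 66.7 CPM in whole organoid replicates, and at 66.0, 83.1, 105, 83.5 and 109 CPM in YFP progeny, against 124 and 118 CPM in Lgr5-EGFP cells. It was lower in enterocyte-like than in stem-like wells in organoids (log2 -4.03 ± 0.64, edgeR adjusted p = 0.000139) and ex vivo (-2.50 ± 0.46, edgeR adjusted p = 5.64e-05). It was lower in secretory-like wells of organoids (-1.89 ± 0.59, edgeR adjusted p = 0.045) and higher in their dividing wells (1.22 ± 0.35, edgeR adjusted p = 0.0227). Ex vivo it was not called in secretory-like or in dividing wells (edgeR adjusted p = 0.064 and 0.556). Nor was it called between the sorted groups in organoids. Myc was lower in whole organoid cells than in YFP progeny (-0.95 ± 0.30, edgeR adjusted p = 0.0328). Between YFP progeny and Lgr5-EGFP cells it was not called (edgeR adjusted p = 0.0787). Its relative Mycl1 was higher in YFP progeny, at 56.3 to 70.6 CPM, against 26.9 and 38.2 CPM in Lgr5-EGFP cells (log2 0.91 ± 0.19, edgeR adjusted p = 0.0038). Mycl1 was lower in enterocyte-like than in stem-like wells in organoids (-2.81 ± 0.55, edgeR adjusted p = 0.000833). It was also called lower ex vivo (edgeR adjusted p = 8.06e-05). There it had 0, 0, 0 and 40.6 unscaled CPM in enterocyte-like wells of YFP plates 1, 2, 3 and 5, against 48.0, 60.6, 79.1 and 83.7 in stem-like wells. These enterocyte-like values rest on next to no counts, so no fold change is given. Another relative, Mycn, stood at 3.36 to 13.7 CPM in YFP progeny and at 0 to 1.97 CPM in all other replicates.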

How the data were processed

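Single cells were sorted by FACS into 96-well plates with spike-in RNA, and libraries were made by CEL-seq and sequenced paired-end, per the labels' protocols. The deposited tables hold an estimated count of transcripts per gene and well, which the authors derived from the number of distinct molecular barcodes (4 bases), per the labels' protocols. BWA 0.6.2-r126 and the builds mm10 and GRCm38 are named in the submitters' processing notes. Estimated counts were rounded to whole numbers, which moved no value by more than 0.495. Tables with 192 wells that match no label were not used, and the Lgr5-positive organoid table was matched by its name alone.

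Wells with at least 1500 counts were kept and summed per replicate or per class and replicate (classes needed 5 wells). edgeR 4.0.16 (quasi-likelihood, TMM, filterByExpr, Benjamini-Hochberg over all genes, false discovery rate 0.05) in R 4.3.3 gave all adjusted p-values, with the replicate as a block in class comparisons. DESeq2 1.42.0 was an alternative. P-values measure only the spread between these plates or passages, which may be technical. Wells were clustered with scanpy 1.11.5 (2000 variable genes, 20 components, 10 neighbours, Leiden resolution 1). No doublet caller was run, since wells were sorted to hold 1 cell. The edgeR step was tested on simulated counts. The members and gene lists were chosen with earlier results of these data known. Genes named in full are the 3 most abundant per role and up to 6 called members with the largest change per comparison, with up to 4 called genes of the pathway list. Replicate numbers did not pair the groups: the correlations of deviations were -0.1, 0.0484 and -0.0535 over 7107 genes.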

Additional observations from a re-analysis of the deposited data

Results flagged for a closer look

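Among 34 groups of the 5 YFP plates that were tested for a value apart from the others, 3 had one, where chance gives about 1 in 20. Nolc1 stood at 85.73 CPM on YFP plate 5, with the other plates between 96.2 and 98.01 CPM, a gap of 0.852 of the range against a critical value of 0.71. Utp20 stood at 61.71 CPM on YFP plate 4, with the next plate at 38.66 CPM, a gap of 0.715 of the range. Polr1a stood at 15.44 CPM on YFP plate 1, with the next plate at 28.58 CPM, a gap of 0.785 of the range. These values rest on few counts per plate, since Nolc1, Utp20 and Polr1a had 1390, 453 and 374 counts over the kept wells of all 12 replicates. The part of counting error in these gaps was not tested.

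The change of secretory-like over stem-like wells differed between organoids and ex vivo by edgeR's interaction test for Nhp2, by -1.7237 on the log2 scale (edgeR adjusted p = 0.0304), for Nop56, by -1.4745 (edgeR adjusted p = 0.021), and for Npm1, by -1.334 (edgeR adjusted p = 0.00339). The cause was not tested.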

How the results depend on the processing

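The numbers of members called, out of 33 unless another number tested is given, moved as follows, and fits that leave out 1 replicate tested 31 to 33. For YFP progeny against Lgr5-EGFP cells (20 called) DESeq2 gave 11, wells thinned to 1500 counts 9 of 24 tested, stem-like wells alone 13 of 32 tested and leaving out 1 plate 8 to 19, and the replicate block gave 18. One fit over all 5 groups gave 5 for Lgr5-positive and 1 for Reg4-positive against whole organoid cells, where 0 were called. For Lgr5-positive organoid against Lgr5-EGFP cells (0 called) DESeq2, no filter and wells of at least 3000 counts gave 1 each, and stem-like wells alone 2. For whole organoid against YFP progeny (2 called) no filter gave 1, thinning 1 of 27 tested, the replicate block 0, and leaving out 1 replicate 0 to 3. For enterocyte-like wells ex vivo (25 called) thinning gave 4 of 5 tested, no replicate block 13 of 16 tested, and leaving out 1 plate 20 to 22. In organoids (29 called) thinning gave 7 of 10 tested and leaving out 1 replicate 13 to 18. For secretory-like wells ex vivo (5 called) DESeq2, no filter, 3000 counts and spike-in scaling gave 0 each, thinning 0 of 5 tested, no replicate block 0 of 25 tested, resolution 0.5 0 of 26 tested, resolution 2 gave 12, every well outside the named clusters 3, Paneth- and goblet-like wells alone 1 of 31 tested, and leaving out 1 plate 0 to 4. In organoids (8 called) DESeq2 gave 5, thinning 2 of 10 tested, spike-in scaling 20, no replicate block 5 of 29 tested, Paneth- and goblet-like wells alone 2 and leaving out 1 replicate 4 to 6. For dividing wells ex vivo (3 called) DESeq2 and 5 or more cell cycle counts gave 0 each, thinning 0 of 13 tested, no replicate block 0 of 30 tested, stem-like wells alone 0 of 32 tested, spike-in scaling gave 24, and leaving out 1 plate 0 to 3. In organoids (21 called) DESeq2 gave 13, thinning 8 of 17 tested, no replicate block 5, 5 or more cell cycle counts 12, stem-like wells alone 0 and leaving out 1 replicate 7 to 25. The cause was not tested, except that some alternatives left fewer genes to test where stated.

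For single named genes 897 alternatives kept the call, 257 lost it and 0 turned the direction. Spike-in scaling moved the median log2 of all genes to -0.13, 0.34 and 0.54 ex vivo and to -0.94, -0.82 and 1.18 in organoids, for enterocyte-like, secretory-like and dividing wells. A planned use of wells 49 to 96 of YFP plate 4 was not run, since the table holds 48 wells. Stem-like wells, wells thinned in class comparisons and the Paneth- and goblet-like subset were chosen after seeing the data. Simulated log2 changes of 1 between YFP progeny and Lgr5-EGFP cells were recovered in 64% of 100 changed genes, and recovery at low levels was not tested on its own.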

Other observations

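Small nucleolar RNAs are often cut from introns of other genes. By the GENCODE M21 annotation on GRCm38, 8 of the 33 members (24.2%) host 23 annotated snoRNA genes, against 1.18% of 21951 protein-coding genes. The hosts are Ncl, Nop56, Nop58, Dkc1, Wdr43, Ppan, Gnl3 and Tsr1. The counts here are of polyadenylated transcripts and do not measure the snoRNAs.

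Rn45s is the precursor rRNA that these factors process. The libraries were made from polyadenylated RNA, which this transcript is not, so its counts are no measure of its level in the cell. It stood at 2912 and 2707 CPM in Reg4-positive, 1063 CPM in Lgr5-positive and 8548 and 10028 CPM in whole organoid replicates. In YFP progeny it stood at 1112, 1039, 1319, 1151 and 782 CPM, against 3552 and 3055 CPM in Lgr5-EGFP cells. It was lower in YFP progeny than in Lgr5-EGFP cells (log2 -1.61, edgeR adjusted p = 3.01e-05) and higher in whole organoid cells than in YFP progeny (log2 3.10, edgeR adjusted p = 1.23e-07), and these groups did not overlap. It was also lower in Lgr5-positive (log2 -3.09) and Reg4-positive (log2 -1.71) than in whole organoid cells (edgeR adjusted p = 0.0251 and 0.0364), and lower in Lgr5-positive organoid than in Lgr5-EGFP cells (log2 -1.60, edgeR adjusted p = 0.0174). It was lower in secretory-like than in stem-like wells ex vivo (log2 -0.53, edgeR adjusted p = 0.0419). In dividing wells of organoids, where 21 of the 33 genes were higher, Rn45s was lower (log2 -0.78, edgeR adjusted p = 0.0138).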
